A study of Mus musculus with 6 samples.

Results

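The 9 genes described here, Bcl6, Cxcr5, Pdcd1, Icos, Il21, Sh2d1a, Maf, Ascl2 and Tox2, mark or build the follicular helper T cell. They were found by gene name among the 39171 gene identifiers of the deposited tables, where each of the 9 names had 1 row. The libraries were made from splenic CD4+ T cells of C57BL/6 mice, which the labels call premenopausal, and no genetic change is named for either group. The AngII group (3 mice) received angiotensin II, the blood pressure raising peptide, from osmotic minipumps at 800 ng/kg/min for 14 days from 10 weeks of age. The Control group (3 mice) had the same age and waiting time and is labelled untreated, with no pump named. The comparison asks whether CD4+ T cell transcripts change under this hypertensive stimulus in females before menopause. The cells were taken from spleen suspensions with a CD4 isolation kit, so follicular helper cells were not sorted and make up an unknown part of each library. In such bulk RNA, fewer cells of a type and less RNA per cell cannot be told apart.

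Follicular helper T cells are the CD4+ T cells that enter B cell follicles and help B cells to form germinal centres and to switch and refine their antibodies. BCL6 is the repressor that sets the fate, the chemokine receptor CXCR5 draws the cell towards CXCL13 in the follicle, and the costimulator ICOS and the inhibitory receptor PD-1 are carried on its surface. Help is delivered through interleukin 21, interleukin 4, CD40 ligand and long contacts that need the adaptor SAP. In the resting spleen these cells are a minority, and several of the genes are shared with other cells: Cxcr5 and Bcl6 with B cells, Maf with macrophages, and Icos, Pdcd1 and Maf with regulatory T cells.

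T cell markers were high in all libraries, and markers of other cells were present too. Cd3e was between 434 and 536 FPKM (fragment counts scaled to transcript length and library size, so that levels of different genes can be compared) and Cd4 between 203 and 254 FPKM, while of the CD8 genes Cd8a stayed at or below 1.67 FPKM and Cd8b1 lay between 9.33 and 12.0 FPKM. Summed over 13 B cell markers, the libraries held 668 to 1193 FPKM in Control and 597 to 959.9 in AngII, mostly Ighm. Summed over 11 macrophage markers they held 1265 to 2219 FPKM in Control and 1561 to 3089 in AngII. The 9 T cell markers summed to 3584 to 4205 FPKM in Control and 3623 to 3970 in AngII. In AngII replicate 2 the macrophage sum was 3089 FPKM beside a T cell sum of 3623. The share of cells other than T cells was not measured. The 6 germinal centre B cell markers summed to only 0.787 to 1.1 FPKM in Control and 0.734 to 0.904 in AngII. Library totals were 613674 to 717286 FPKM, the read depth is unknown, and all pairs of libraries correlated at 0.914 to 0.937 over tested genes (Pearson, log2 scale).

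No member differed between AngII and Control beyond the spread of the mice. By limma's adjusted p (threshold 0.05 over 11842 genes), 0 of the 8 members that passed the filter of 1 FPKM were called, where 0.0338% of all genes were. At an unadjusted limma p under 0.05 the members were 0 of 8 and all genes 1.76%. In none of the 9 members did the 3 AngII libraries stand apart from the 3 Control libraries, against 5.84% of all tested genes. The median log2 fold change of the 8 members was -0.085, beside -0.004 for all tested genes, and 6 of 8 were below 0, beside 52.0% of all genes. That median was 0.012 without Control replicate 1, -0.260 without Control replicate 2, -0.006 without Control replicate 3, -0.033 without AngII replicate 1, -0.139 without AngII replicate 3 and 0.095 with library weights. Scaling to an equal sum and centring on T cell markers moved the median of all genes to 0.058 and 0.075. The members' median was then -0.023 and -0.006, below that of all genes. The order was the reverse with library weights (all genes -0.002), without Control replicate 1 (all genes -0.003) and without Control replicate 3 (all genes -0.016). What stood out instead was a difference between mice of the same group: Il21, Ascl2 and Tox2 were high and low in largely the same libraries. Pdcd1 shared their highest and lowest library.

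The promoter windows of these 4 genes are shown. Il21, Ascl2 and Tox2 varied together across mice. Pdcd1 followed them only in part, with Control replicate 3 at 0.954 of its mean over the libraries, where the others were above 1. Each window is the 250 bases before the start of the gene, 5′ to 3′ on the strand of the gene, from RefSeq on GRCm38.p6. They lie at chr3:37232637-37232886 (minus strand, Il21), chr7:142969265-142969514 (minus strand, Ascl2), chr2:163202877-163203126 (plus strand, Tox2, of whose 5 listed starts the one nearest to the GENCODE gene start was taken) and chr1:94052554-94052803 (minus strand, Pdcd1). Of the 9 members, 5 were in the promoter table, and Cxcr5, Icos, Sh2d1a and Maf were not.
Il21: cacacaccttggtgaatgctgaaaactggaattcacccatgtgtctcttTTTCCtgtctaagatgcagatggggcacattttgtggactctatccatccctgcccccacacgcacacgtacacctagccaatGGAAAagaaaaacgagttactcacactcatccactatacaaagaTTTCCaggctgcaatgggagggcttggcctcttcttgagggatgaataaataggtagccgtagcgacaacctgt
Ascl2: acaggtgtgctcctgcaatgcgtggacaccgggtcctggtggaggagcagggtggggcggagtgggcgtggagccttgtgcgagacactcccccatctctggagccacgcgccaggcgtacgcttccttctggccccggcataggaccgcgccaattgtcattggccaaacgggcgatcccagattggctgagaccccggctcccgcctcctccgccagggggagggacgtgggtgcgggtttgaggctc
Tox2: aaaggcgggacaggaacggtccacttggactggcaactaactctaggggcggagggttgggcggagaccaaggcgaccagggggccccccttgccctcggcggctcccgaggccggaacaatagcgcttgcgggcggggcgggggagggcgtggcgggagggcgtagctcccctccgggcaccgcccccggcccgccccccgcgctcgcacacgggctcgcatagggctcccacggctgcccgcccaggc
Pdcd1: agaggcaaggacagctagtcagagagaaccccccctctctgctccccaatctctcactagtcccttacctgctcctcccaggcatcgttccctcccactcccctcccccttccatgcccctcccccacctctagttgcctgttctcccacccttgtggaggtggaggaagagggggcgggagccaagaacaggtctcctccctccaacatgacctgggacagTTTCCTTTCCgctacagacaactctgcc
Capitals mark GGAAA on either strand (TTTCC on the opposite one), the core bound by NFAT, the factor switched on by calcium after T cell receptor contact. It was found 3 times in the Il21 window, 2 times in that of Pdcd1 and 0 times in those of Ascl2 and Tox2. Of 32851 promoter windows of this length 55.6% hold it, so its presence sets no window apart. TGANTCA, the AP-1 motif (in 6.75% of windows), and TTCNNNGAA, the STAT motif (in 7.02%), were searched on both strands and had 0 matches in all 4 windows.

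Among the transcription factors, Maf had by far the highest level and Ascl2 the lowest. Bcl6 (ENSMUSG00000022508, GRCm38 chromosome 16, 23965052 to 23988852), the lineage factor of follicular helper cells, was at 10.8, 7.76 and 10.6 FPKM in Control replicates 1 to 3 and at 9.85, 7.71 and 10.4 FPKM in AngII replicates 1 to 3. In each group replicate 2 was the lowest mouse, and the groups overlapped throughout. The log2 fold change was -0.05 (95% interval -0.44 to 0.34, limma adjusted p = 0.9999).

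Maf (ENSMUSG00000055435, chromosome 8, 115682942 to 115707794), the bZIP factor that drives interleukin 21 and interleukin 4 expression, was at 38.0, 33.0 and 48.3 FPKM in Control and 40.2, 43.5 and 37.2 FPKM in AngII. The highest and the lowest mouse were both Control mice, and all AngII values lay between them. Its log2 fold change was 0.03 (95% interval -0.32 to 0.39, limma adjusted p = 0.9999). Across the 6 libraries Maf fell where T cell markers rose (Pearson r = -0.83) and rose with the lists of dendritic cells (r = 0.77), regulatory T cells (0.74), plasma cells (0.73), platelets (0.70) and macrophages (0.60). The part of these cells in the Maf level was not tested.

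Ascl2 (ENSMUSG00000009248, chromosome 7, 142966829 to 142969264), a bHLH factor that acts early and induces Cxcr5, was at 0.768, 0.169 and 0.475 FPKM in Control and 0.251, 0.473 and 0.235 FPKM in AngII. Its mean of 0.395 FPKM was under the filter, and it was fitted only when no filter was used (log2 fold change -0.14, 95% interval -0.55 to 0.27, unadjusted p = 0.426, not called by limma). Control replicate 1 had 4.55 times the level of Control replicate 2, so both extremes were untreated mice. Tox2 (ENSMUSG00000074607, chromosome 2, 163203125 to 163324170), an HMG-box factor that supports BCL6 and opens chromatin of follicular helper genes, was at 11.7, 4.63 and 10.2 FPKM in Control and 6.92, 10.95 and 8.02 FPKM in AngII. Here too Control replicate 1 was the highest and Control replicate 2 the lowest of the 6 mice, a ratio of 2.52. The log2 fold change was 0.03 (95% interval -0.78 to 0.85, limma adjusted p = 0.9999), and leaving out Control replicate 2 or Control replicate 1 moved it to -0.326 or 0.259.

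Of the surface receptors, Icos was the most even across the mice. Cxcr5 (ENSMUSG00000047880, chromosome 9, 44511787 to 44561877), the homing receptor of the follicle, was at 14.5, 8.46 and 13.8 FPKM in Control and 9.75, 9.44 and 14.2 FPKM in AngII. Control replicates 1 and 3 and AngII replicate 3 were high and the other 3 libraries were low, so each group had libraries of both kinds. Its log2 fold change was -0.12 (95% interval -0.70 to 0.47, limma adjusted p = 0.9999), and it was -0.343 without Control replicate 2.

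B cells also carry Cxcr5, and 2 of its 3 high libraries were also the highest for the B cell gene Ms4a1. Ms4a1, which encodes CD20, was at 5.85, 9.25 and 20.7 FPKM in Control and 6.10, 6.74 and 20.2 FPKM in AngII. Control replicate 1 had the highest Cxcr5 level of all with Ms4a1 at its lowest, so the 2 genes did not move together in that mouse. By summed FPKM of the B cell markers, AngII replicate 2, a low Cxcr5 library, came second at 959.9, of which Ighm alone was 908.2. By mean log2 level of the 13 markers that library was low, at 2.67. Control replicate 3 was at 3.87 and AngII replicate 3 at 3.70. Over the 6 libraries the mean level of the 13 B cell markers had a Pearson r of 0.53 with Cxcr5. The part of B cells in the Cxcr5 level was not tested.

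Pdcd1 (ENSMUSG00000026285, chromosome 1, 94038305 to 94052553), which encodes PD-1, was at 12.6, 6.36 and 7.99 FPKM in Control and 6.39, 8.71 and 8.25 FPKM in AngII. Control replicate 1 stood above the other 5 libraries, which lay between 6.36 and 8.71 FPKM. The log2 fold change was -0.15 (95% interval -0.73 to 0.44, limma adjusted p = 0.9999), and it was 0.10 without Control replicate 1. Icos (ENSMUSG00000026009, chromosome 1, 60977927 to 61000320), the costimulatory receptor that these cells need to form and persist, was at 41.9, 34.5 and 43.1 FPKM in Control and 37.4, 38.3 and 39.5 FPKM in AngII. The 3 AngII mice lay close together and inside the range of the Control mice. The log2 fold change was -0.04 with a 95% interval of -0.28 to 0.19 (limma adjusted p = 0.9999).

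The adaptor Sh2d1a (ENSMUSG00000005696, chromosome X, 42502453 to 42529330) encodes SAP, which relays signals of SLAM family receptors during contacts of T and B cells. It was at 67.4, 66.0 and 63.9 FPKM in Control and 54.4, 64.1 and 61.4 FPKM in AngII. Of all members it came nearest to a group difference: only AngII replicate 2 reached into the Control range, just above Control replicate 3. The log2 fold change was -0.13 (95% interval -0.32 to 0.05, unadjusted p = 0.124, limma adjusted p = 0.9999). Without AngII replicate 2 it was -0.184 and without AngII replicate 1 -0.067. With equal-sum scaling it was -0.067 and with centring on T cell markers -0.055. The T cell markers themselves had a median log2 fold change of -0.077 in the main fit. Across the 6 libraries Sh2d1a rose with immediate early and stress genes such as Fos (Pearson r of the list mean 0.88), and Fos was at 493, 575 and 151 FPKM in Control and 143, 358 and 164 FPKM in AngII. Of the cell type and program lists compared, this one had the highest r with Sh2d1a. The part of that response in the Sh2d1a level was not tested.

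The cytokine gene Il21 (ENSMUSG00000027718, chromosome 3, 37222759 to 37232636), whose product drives germinal centre B cells and plasma cell formation, was at 3.03, 0.554 and 2.50 FPKM in Control and 0.903, 2.36 and 0.919 FPKM in AngII. Control replicates 1 and 3 and AngII replicate 2 were high, the other 3 libraries were low, and no library lay in between. The highest and lowest mouse, both Control, differed by 5.46 times. The log2 fold change was -0.28 with a wide 95% interval of -1.32 to 0.76 (limma adjusted p = 0.9999). It was -0.703 without Control replicate 2 and -0.016 without Control replicate 1. In the authors' deposited table, whose conditions are named only by number, Il21 had the smallest p of the 9 members, 0.02525, and a q of 0.999918, from the authors' own test. All 9 members were tested there, with the same q.

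**Figure D1:**
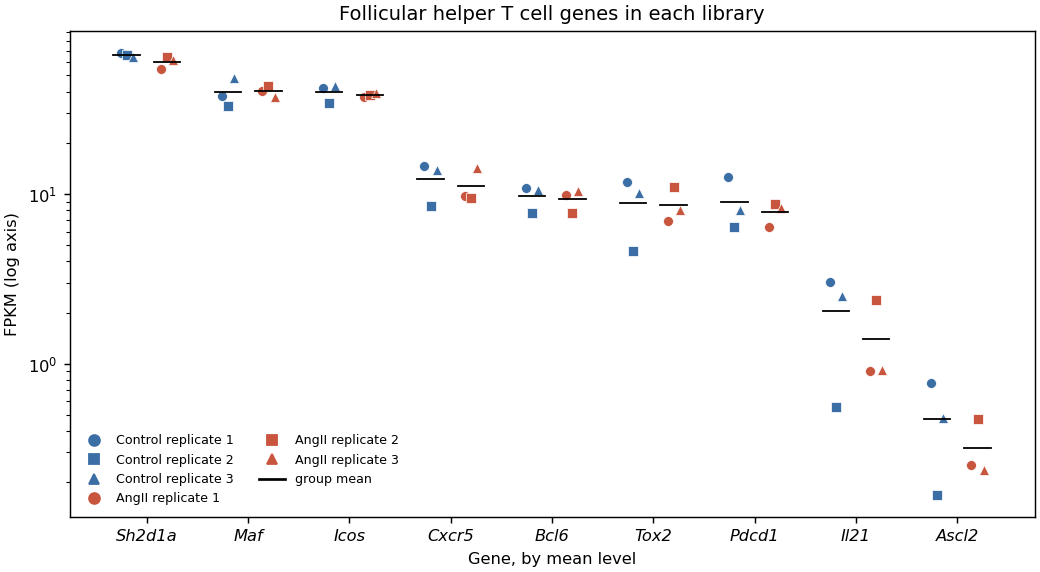
FPKM (log axis) of the 9 members in each library, by gene from the highest to the lowest mean; blue marks are Control mice, red marks AngII mice, the shape gives the replicate and the black bar the group mean. The groups overlap for each gene, and Il21 spans 0.554 to 3.03 FPKM within Control alone.

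**Figure D2:**
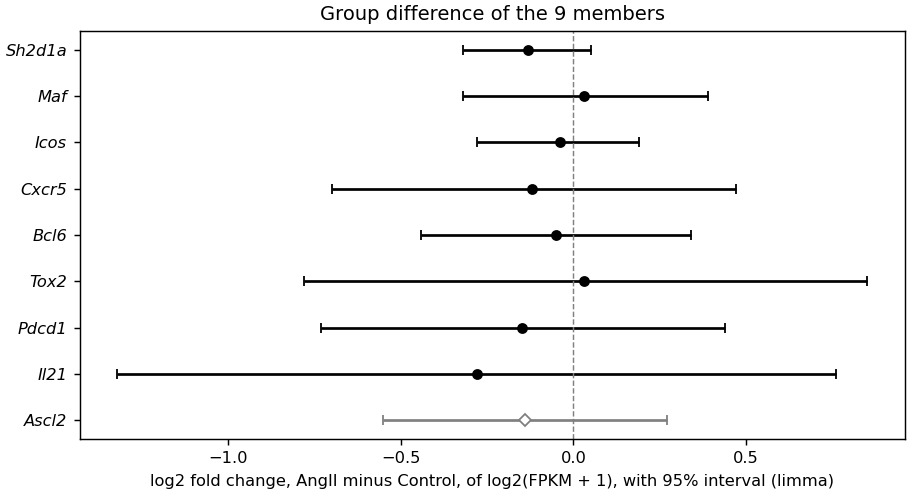
Log2 fold change (AngII minus Control, of log2(FPKM + 1)) of the 9 members with its 95% interval from limma; the open grey mark is Ascl2, fitted without a filter on low values. Each interval holds 0, from Sh2d1a (-0.32 to 0.05) to Il21 (-1.32 to 0.76).

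By level the members fell into 4 tiers. Sh2d1a, at a mean of 62.9 FPKM over the 6 libraries, was above Maf in 6 of 6 libraries with no overlap of the ranges. Maf (40.0 FPKM) and Icos (39.1 FPKM) did not differ beyond their spread, with Maf higher in 3 of 6 libraries. Cxcr5 (11.7), Bcl6 (9.53), Tox2 (8.73) and Pdcd1 (8.38 FPKM) followed, and the ranges of neighbours in this order overlapped. Il21 (1.71 FPKM) and Ascl2 (0.395 FPKM) came last, with overlapping ranges although Il21 was higher in 6 of 6 libraries. Among the 11842 tested genes Sh2d1a stood at the 88.7th percentile of mean FPKM and Il21 at the 7.51th.

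The precision of each gene set what could be seen. The SD within groups on the log2 scale was 0.123 for Icos, close to the median of 0.131 over all tested genes, and 0.0899 for Sh2d1a, below it. It was 0.207 for Maf and 0.226 for Bcl6, 0.351 for both Cxcr5 and Pdcd1, 0.494 for Tox2 and 0.620 for Il21, where 0.347 is the level that 10% of tested genes exceed. Thus 4 of 8 tested members were among the tenth of genes with the largest spread between mice of a group. The 95% interval of the log2 fold change was thus narrow for Icos and Sh2d1a and wide for Tox2 and Il21.

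The spread was shared. Il21, Ascl2 and Tox2 each had their highest value in Control replicate 1 and their lowest in Control replicate 2, and Control replicates 1 and 3 and AngII replicate 2 were the 3 highest libraries for each of them. Relative to the mean of the gene over 6 libraries, Control replicate 1 was at 1.77 for Il21, 1.94 for Ascl2 and 1.34 for Tox2, and Control replicate 2 at 0.324, 0.427 and 0.531. Over the 6 libraries Il21 correlated with Ascl2 at a Pearson r of 0.96 (Spearman 0.94) and with Tox2 at 0.94 (Spearman 0.94). With each group centred on its own mean these were 0.95 and 0.98. Pdcd1 followed Ascl2 (r = 0.90) and Tox2 (r = 0.80). The pattern was not confined to the members. The mean of the regulatory T cell genes had r = 0.76 with Il21, 0.72 with Tox2 and 0.62 with Ascl2. For the plasma cell list these were 0.65, 0.60 and 0.43. The part of these cells in the pattern was not tested. Points share library, isolation and scaling, so these values are descriptions of 6 mice.

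**Figure D3:**
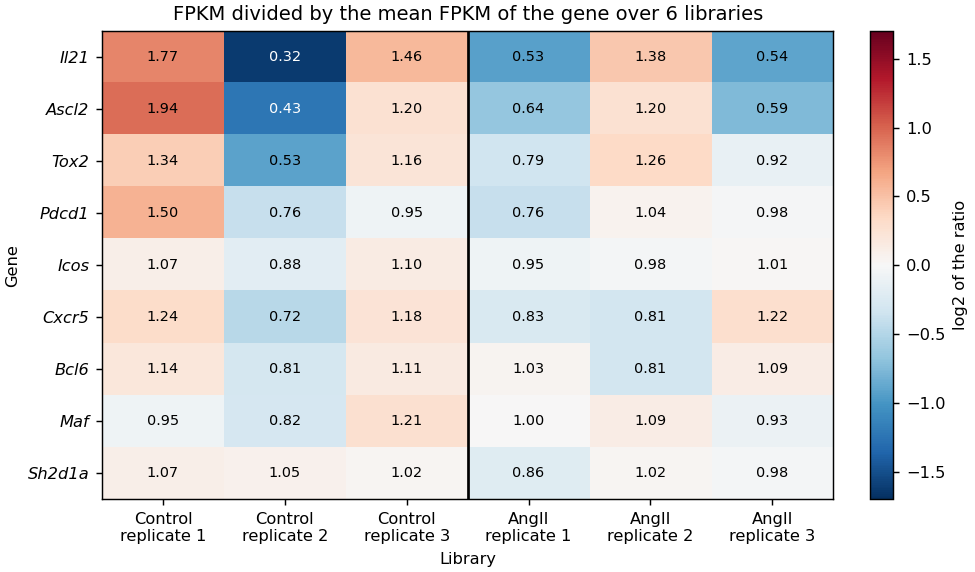
FPKM of each member in each library divided by the mean of that gene over the 6 libraries; columns are libraries, with a line between Control and AngII, numbers are the ratio and colour its log2. Il21, Ascl2 and Tox2 are above 1 in Control replicates 1 and 3 and AngII replicate 2, while Sh2d1a stays between 0.865 and 1.07.

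Bcl6 and Cxcr5 formed a different pair. They correlated at 0.88 (Spearman 0.89), with low values in Control replicate 2 and AngII replicate 2. AngII replicate 2 was thus among the 3 highest libraries for Il21, Ascl2 and Tox2 and among the 2 lowest for Bcl6 and Cxcr5. Bcl6 correlated with Il21 at only 0.33 (Spearman 0.66). Icos lay between the pairs, with r = 0.88 to Cxcr5, 0.84 to Tox2 and 0.90 to the mean of 11 regulatory T cell genes. Foxp3, the factor of regulatory T cells, was at 26.3 to 30.3 FPKM in Control and 25.4 to 28.4 FPKM in AngII. Sh2d1a went its own way, with r between -0.17 and 0.56 to the other members. Of the 36 pairs of members, 10 had r of at least 0.8 (rounded to 2 decimals) and 2 were below 0, with a median of 0.59. The same count over pairs of all genes was not made, so these values do not set the members apart from other genes.

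Further genes were set against Il21, which was picked for this after its values were seen. Pdcd1 and Icos each had a Pearson r of 0.80 with it. Of 51 further genes of the follicular helper pathway, 4 reached 0.8, where 138 of 11841 genes (1.17%) did. These 4 were Tbc1d4 (0.91), Sostdc1 (0.84), Ctla4 (0.83) and Tnfrsf4 (0.81), named here after their values were seen. Sostdc1, a secreted inhibitor of Wnt and BMP signals made by follicular helper cells, was at 9.35, 0.497 and 2.16 FPKM in Control and 2.13, 5.97 and 2.05 FPKM in AngII. Its highest and lowest mice were those of Il21. Ctla4 and Tnfrsf4 (the gene of OX40) are also carried by regulatory T cells. Ifngr1 (r = -0.86) and P2rx7 (r = -0.81), also named after their values were seen, ran opposite to Il21. How many of all genes did so was not counted, and a link of either gene to Il21 was not tested. P2rx7 encodes an ATP receptor that can trigger death of follicular helper cells.

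**Figure D4:**
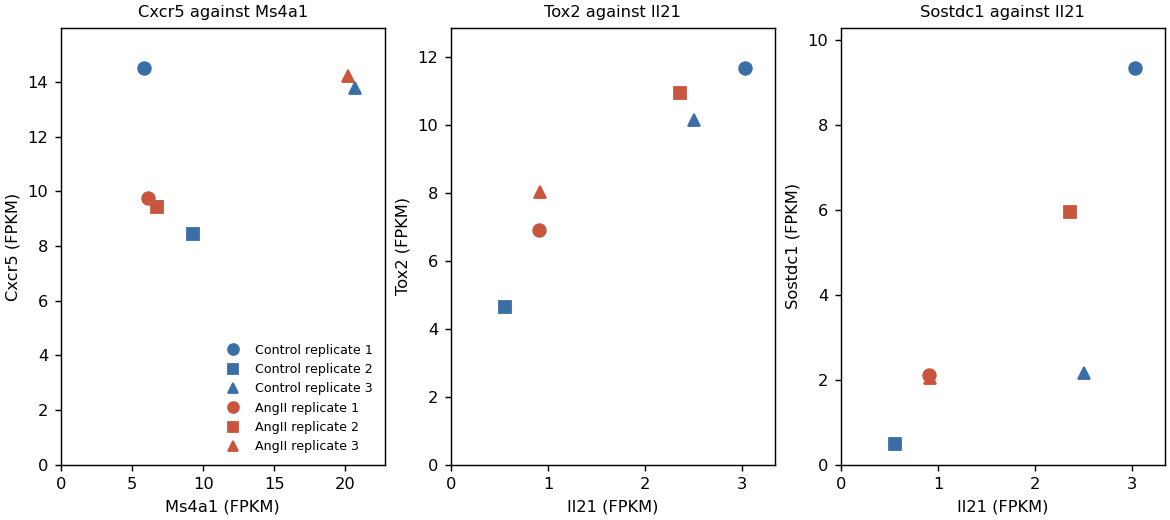
FPKM of 3 pairs of genes in the 6 libraries, with colours for groups and shapes for replicates; axes start at 0. Cxcr5 is high in 3 libraries, of which Control replicate 1 has Ms4a1 at only 5.85 FPKM; Tox2 and Sostdc1 are highest in Control replicate 1 and lowest in Control replicate 2, as is Il21.

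The genes whose level most resembled the mean log2 level of the 8 tested members, among 7690 named genes whose mean reached 5 FPKM, were Tdp1 (Pearson r = 0.954 over 6 libraries), Vps18 (0.946), Plk3 (0.934), Cltc (0.920) and Rtn3 (0.907). With 6 points and 7690 genes some values of this size arise by ranking alone, and none of the 5 is a follicular helper gene. Their range was small, from 50.99 to 52.8 FPKM for Cltc and from 8.31 to 11.7 FPKM for Plk3.

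The further genes of the pathway, 51 in 6 groups by role, likewise held no call. Of the 50 that were tested, 0 passed limma's adjusted p, 2 had an unadjusted p under 0.05, both lower in AngII (1.14% of all genes did so), and 3 had all AngII libraries below all Control libraries (3.48% of all genes). Their median log2 fold change was -0.048. With scaling to an equal sum it was 0.019 where all genes had 0.058, and with centring on T cell markers 0.031 where all genes had 0.075. With library weights it was 0.004 and that of all genes -0.002. The count at an unadjusted limma p under 0.05 was 0 without AngII replicate 1, where all genes numbered 121. It was 1 with equal-sum scaling (all genes 177), with centring on T cell markers (all genes 263) and with the replicate block (all genes 215). It was 1 without Control replicate 1 (all genes 225) and 5 without Control replicate 3 (all genes 413). Without AngII replicate 2 it was 5 (all genes 912), and with library weights 11 (all genes 2046 of 11842).

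Genes that keep T cells in the T cell zone or move them within the spleen held both unadjusted calls. Ccr7, the receptor that holds T cells away from the follicle, was at 371, 339 and 318 FPKM in Control and 272, 269.6 and 313 FPKM in AngII (log2 fold change -0.27, SE 0.0904, unadjusted p = 0.0254, limma adjusted p = 0.9999). Gpr183, the oxysterol receptor EBI2 that guides activated cells to the edge of the follicle, was at 60.7, 57.9 and 66.6 FPKM in Control and 50.4, 50.5 and 57.3 FPKM in AngII (log2 fold change -0.22, SE 0.0820, unadjusted p = 0.0341, limma adjusted p = 0.9999). In both genes the highest AngII mouse was just below the lowest Control mouse, and neither passed the threshold. With equal-sum scaling the log2 fold change was -0.198 (SE 0.0628) for Ccr7 and -0.156 (SE 0.0926) for Gpr183. With centring on T cell markers it was -0.188 (SE 0.0627) and -0.145 (SE 0.114). S1pr1, the exit receptor, had a log2 fold change of -0.15 and S1pr2, which confines cells to germinal centres, of 0.04.

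No factor that promotes or opposes the fate passed the limma threshold. Tcf7, which with Lef1 opens the way to Bcl6 expression, had a mean of 654 ± 57.4 FPKM in Control against 679 ± 42.7 FPKM in AngII (± SD, n = 3). Prdm1, which encodes BLIMP1, the repressor that antagonises BCL6, was at 3.49, 2.95 and 4.82 FPKM in Control and 3.65, 3.50 and 4.02 FPKM in AngII, with a log2 fold change of 0.01 (SE 0.157). Among the promoting factors, Irf4 (-0.18), Egr2 (-0.25) and Batf (-0.09) had log2 fold changes below 0. Among those that oppose the fate, Klf2 had a log2 fold change of -0.27, Stat5a of -0.13, Rc3h1, which encodes Roquin, of -0.10 and Id2 of -0.07. Klf2 was at 768, 924 and 568 FPKM in Control and 546, 706 and 598 FPKM in AngII.

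Cytokines, their receptors and surface molecules of B cell help were also alike in range. Il4, the other follicular helper cytokine, was at 1.68, 2.90 and 2.48 FPKM in Control and 2.41, 1.88 and 3.30 FPKM in AngII (log2 fold change 0.07, SE 0.208), and it ran against Il21 across the mice (r = -0.79). Cd40lg, the ligand through which T cells activate B cells, had a mean of 71.5 ± 1.20 FPKM in Control against 76.2 ± 9.85 FPKM in AngII (± SD, n = 3). Il21r and the interleukin 6 receptor genes Il6ra and Il6st had log2 fold changes of -0.09, 0.09 and 0.16, and the interleukin 2 receptor genes Il2ra and Il2rb of 0.06 and -0.14. The SLAM family receptors to which SAP binds had -0.11 (Slamf6), -0.07 (Slamf1) and 0.07 (Cd84), and the costimulator Cd28 had -0.09. Further markers had -0.33 (Angptl2), -0.19 (Izumo1r, the folate receptor 4 gene), -0.07 (Tbc1d4) and 0.06 (Nt5e, which encodes CD73). Izumo1r was 1 of the 3 genes whose groups did not overlap, with Control mice from 118 to 142 FPKM and AngII mice from 102 to 115 FPKM.

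Partners of these receptors on other cells were detected too. Cxcl13, the ligand of CXCR5, was at 2.27, 2.79 and 2.55 FPKM in Control and 2.27, 6.11 and 2.03 FPKM in AngII, with AngII replicate 2 apart. That mouse also had the highest Csf1r level, a macrophage receptor, at 157 FPKM against 91.8 to 122 in the other 5. Cd274 and Pdcd1lg2, the ligands of PD-1, were at 10.6 to 13.4 and 2.46 to 3.77 FPKM over all libraries, and Icosl, the ligand of ICOS, at 4.20 to 6.13 FPKM.

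**Figure D5:**
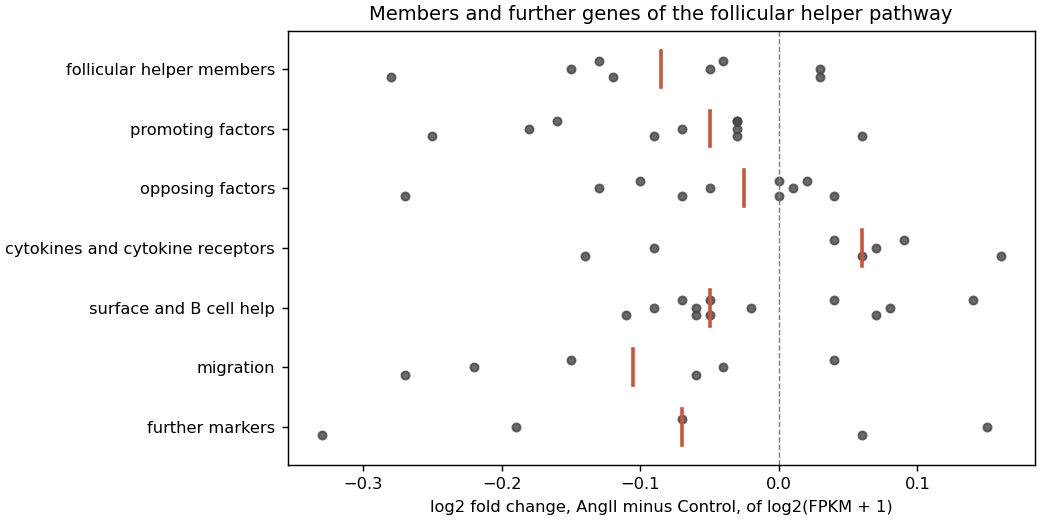
Log2 fold change (AngII minus Control, of log2(FPKM + 1)) of each tested gene, for the members and for 6 groups of further follicular helper genes; a dot is a gene and the red bar the median of the group. All dots lie between -0.33 (Angptl2) and 0.16 (Il6st), and none passed the limma threshold.

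Set beside other helper T cell programs, the members did not stand apart in the group comparison. The median log2 fold change was -0.085 over 8 members, -0.046 over 11 regulatory T cell genes and -0.180 over 10 Th1 genes, with 0 genes past the limma threshold in each list. These medians were not tested against each other.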

How the data were processed

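Splenic CD4+ T cell RNA of 3 Control and 3 AngII mice was sequenced from Illumina TruSeq libraries, per the labels' protocols. The authors deposited FPKM per gene, 1 table per library. Trimmomatic 0.32, TopHat2 2.1.1, Cuffdiff and GRCm38.p3 are named per the submitters' processing notes. What program and scaling gave these FPKM, and from which annotation, is not stated in the labels. The authors' deposited table of the series gives a p-value and a q-value per gene, per the file headers. Its conditions carry numbers only, so no direction was taken from it.

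FPKM is not a count, so log2(FPKM + 1) was tested with limma 3.58.1 (R 4.3.3; eBayes with trend, two-sided, Benjamini-Hochberg, threshold 0.05) over the 11842 genes whose mean reached 1 FPKM. Fold changes on this scale understate those of low genes. The code was tested on simulated data. Members and lists were chosen with earlier results of these data known. Of 174 listed genes, 173 were in the files. Named were all members, up to 4 genes of smallest p per group of the pathway with a few fixed ones, and the 5 genes most like the members. A few genes under this rule are not reported here. Genes named outside this rule are said to be so or serve as checks of the sample. Symbols are those of the files, or of GENCODE M21 by identifier where blank; gene positions are GENCODE M21 (GRCm38), whose chromosomes are those of GRCm38.p3. Each library is a mouse by the design text. Alternatives are given in the closing section. Tables and figures used pandas 2.3.3, numpy 2.4.6 and matplotlib 3.10.9 under Python 3.11.15.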

Additional observations from a re-analysis of the deposited data

How the results depend on the processing

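The count of members past the limma threshold was 0 in all settings: other pseudocounts, filters, scalings, variance models, library weights, the replicate block, a threshold of 0.1 and each library left out. The same held for the further genes of the pathway. For Ascl2, under the filter, only the fit without a filter was run. Genes past the threshold overall numbered 4, and 7 without a filter, and 4 to 9 with 1 library left out (8 without Control replicate 1, 7 without Control replicate 3, 9 without AngII replicate 3). The median of the further genes was 0.019 with equal-sum scaling and 0.031 with centring on T cell markers. These scalings moved the median of all genes to 0.058 and 0.075. Over all tested genes, same-numbered mice did not deviate together (r = -0.080, -0.023 and -0.035). A pairing that acts on only some genes cannot be seen in such values. With the replicate block 3 genes passed, 0 of them members, and the members' median stayed -0.085. At an unadjusted p under 0.05, where all genes numbered 208 and 116 to 912 with 1 library left out (2046 with library weights), the members numbered 1 with library weights and 1 without AngII replicate 2.

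Among log2 fold changes of members, none called, 18 of 143 values changed sign. With library weights Bcl6 was 0.200, Cxcr5 0.236, Pdcd1 0.004 and Icos 0.067. Centring on T cell markers shifts all genes alike. Equal-sum scaling shifted low genes less, with Klf2 moved from -0.269 to -0.200 and Il21 from -0.279 to -0.237. Such shifts by themselves take small negative values past 0. With equal-sum scaling and with centring, Bcl6 was 0.007 and 0.025, and Icos 0.022 and 0.034. With 1 library left out the ranges were -0.195 to 0.063 (Bcl6), -0.343 to 0.015 (Cxcr5), -0.341 to 0.10 (Pdcd1), -0.142 to 0.013 (Icos), -0.089 to 0.179 (Maf) and -0.326 to 0.259 (Tox2). Of further genes, library weights gave 0.051 for Egr2, 0.044 for Rc3h1 and 0.026 for Il2rb. Centring gave 0.006 for Id2, 0.011 for Slamf1 and 0.005 for Tbc1d4. Prdm1 was -6.19e-05 with a pseudocount of 5 and -0.017 with quantile normalization. Leaving out 1 library gave -0.205 to 0.053 (Rc3h1), -0.210 to 0.030 (Id2), -0.237 to 0.028 (Il2rb), -0.184 to 0.054 (Tbc1d4), -0.054 to 0.226 (Nt5e), -0.117 to 0.164 (Prdm1), -0.013 to 0.113 (Tcf7), -0.001 to 0.184 (Cd40lg), -0.081 to 0.210 (Il4), -0.027 to 0.183 (Il6ra) and -0.034 to 0.166 (S1pr2). The cause of the other sign changes was not tested. Depth is unknown, so how far it limits Il21 and Ascl2 cannot be given.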
